A study of Carica papaya with 55 samples.

Results

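Pistillodes of mature papaya flowers (stage S5, 3 libraries) were compared with those of the smallest buds that had pistillode libraries (S1, 3 libraries). The comparison covered every feature of the count tables, with 7 libraries of stages S2 to S4 as points between. These 6 libraries and 7 points between came from a series of 55 libraries of 'AU9' papaya (Carica papaya) buds, floral organs and gametophytes, in 19 groups. The S5 pistillodes were dissected from male flowers of 15 to 20 mm and the S1 pistillodes from male buds of 1 to 1.5 mm, before meiosis. The points between were male buds of 2 to 4.5 mm (S2, 2 libraries), 4.5 to 6.5 mm (S3, 2 libraries) and 7 to 12 mm (S4, 3 libraries, after meiosis). The labels give no treatment, no plant age and no word on whether libraries of a group stem from different plants. The p-values reported therefore reflect variation among these libraries, part of which may be technical.

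Papaya plants are female, male or hermaphrodite: females carry a pair of X chromosomes, and males carry an X and a Y with a male-specific region that does not recombine with the X. A male flower matures its stamens, while its pistil stops growing and stays behind as a pistillode, a thin rudiment without a functional ovary. Genes of the male-specific region are held to include a factor that stops the carpels, and many genes of that region have a diverged copy on the X.

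The tables held 193 features of the sex-linked regions, 97 on the X and 96 on the Y (suffix MSY), and nothing from the rest of the genome. Their names matched none of the 48816 genes of the RefSeq reference table, so no function is given here for any of them, and coordinates are those of the files, in a genome build that the labels and headers do not name. Counts per pistillode library summed to 21475 to 78210 over these features, which is not sequencing depth. Values are CPM, counts scaled to effective library totals, which are totals of these tables times a scaling factor (0.81 to 1.15 in pistillodes). A level is therefore relative to the sex-linked counts but not their exact share. Levels of different features are not compared because features differ in length. The male-specific feature CpY19_MSY had 148 to 759 counts in each pistillode library and at most 1 count in each of 21 female libraries. No feature could be recognised as a marker of pistil tissue, so the organ could not be checked by its own markers. A set of 6 features that earlier results of these data placed in stamens or pollen summed to 40474 to 47312 CPM in S5 pistillodes and 38580.1 to 43694 CPM in S1 pistillodes, against 381560.0 to 500056 CPM in S5 stamens and 368500.0 to 518591 CPM in S5 pollen. CpXY36_X made up most of the pistillode sums. Without it the groups did not overlap, at 6275 to 6850 CPM in S5 and 4194 to 5224 CPM in S1 pistillodes. Without CpY1_MSY as well they still did not overlap, at 5167 to 5895 CPM in S5 and 4161 to 5132 CPM in S1 pistillodes. At S1, CpXY36_X and CpY17_MSY were higher in pistillodes (means of 35556 and 3847 CPM) than in stamens (25335 and 1467 CPM). These 2 features therefore do not mark stamens at that stage, and CpXY36_X was at only 4884 to 6660 CPM in S5 pollen. Of these 6 features, CpXY13_X and CpXY18_X held 0 to 136 and 0 to 132 CPM in the pistillode libraries, and 1, CpY1_MSY, passed the test between S5 and S1.

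Enough counts for a test, by a filter over all 55 libraries, were found at 139 features. Of these, 14 were higher (10.1%) and 12 were lower (8.63%) in S5 than in S1 pistillodes, 26 in all (18.7%). The threshold was an adjusted p under 0.05 (edgeR quasi-likelihood test, p-values adjusted after Benjamini and Hochberg over all 139). The 139 included 2 features with 0 counts in the S5 and S1 pistillodes. A fit on those libraries alone tested 120 features and called 45. CpXY41_MSY and CpXY7_MSY were among the features that rose, and PCpY1_MSY, which had the steepest fall on the log2 scale of the called features, was nearly lost by S5. Libraries of the 2 groups did not overlap at 58 features (41.7%). Lack of overlap was a condition for naming a feature by rule below. Where it is restated for such a feature, it is therefore no evidence beyond the test. The median log2 difference of all tested features was -0.01. Changes ran from 0.42 to 3.80 (log2) among higher features, with a median of 1.94, and from -0.42 to -6.28 among lower features, with a median of -0.88. In a bulk dissection, fewer cells of a type and less RNA per cell cannot be told apart. The remaining 54 features had too few counts for a test, with at most 40 counts over all 13 pistillode libraries, and 5 of them had none. The split depended on the scaling: with table totals in place of the trimmed mean of M-values, 11 features were higher and 37 lower, and the median of all features moved to -0.27. Without S5 replicate 2 or without S5 replicate 3, only 7 features were lower.

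Called features lay on both chromosomes. Of 67 tested X features 7 were higher and 7 lower, and of 72 tested Y features 7 were higher and 5 lower, with medians of 0.00 and -0.01. Reads that fit several places were counted at each. Pairs were therefore classed by how much of the pair's count in XX females fell on the Y copy: separate under 5% (21 pairs), shared over 25% (26 pairs), partly shared between (10 pairs), or unclassed with too few female counts (12 pairs). In separate pairs, 1 of 21 X copies was lower and none higher, and 1 of 19 tested Y copies was higher and none lower. In shared pairs, 5 of 27 X features were higher and 2 lower, and 4 of 26 Y features were higher and 3 lower. Reads of a shared pair cannot be assigned to one chromosome, so its copies are not 2 independent observations. Features whose names start with P, a prefix the labels do not explain, had 0 higher and 3 lower of 33 tested, and the other 106 had 14 higher and 9 lower. The classes differ in number and in counts, and no difference between them was tested.

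**Figure D1:**
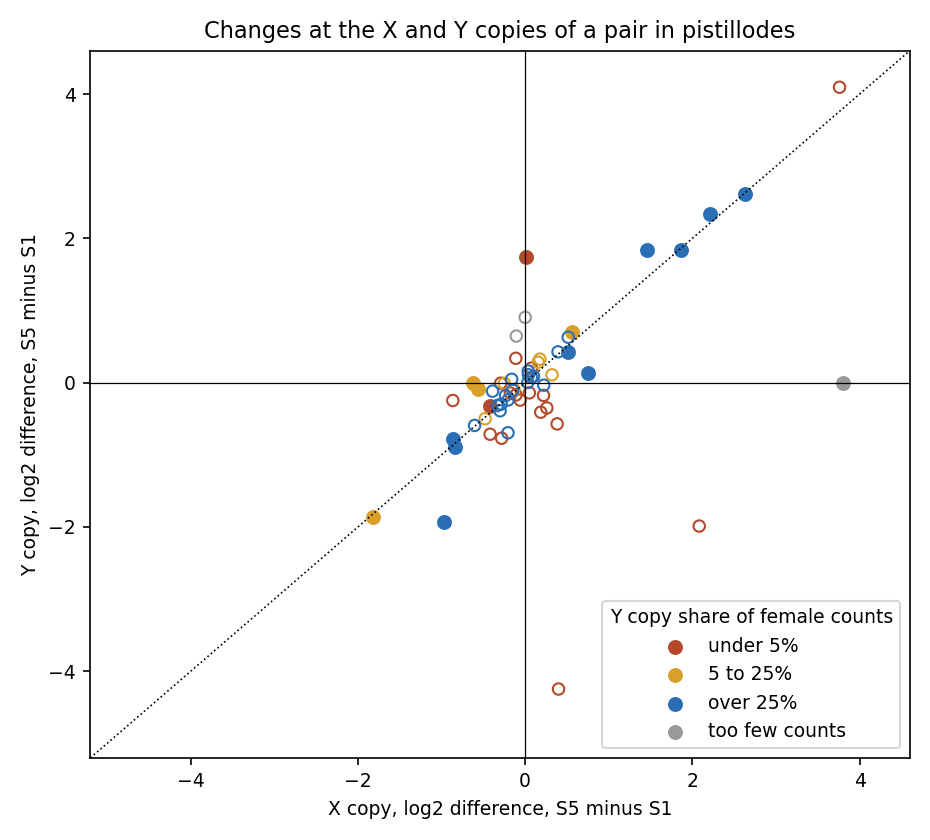
Log2 difference between S5 and S1 pistillodes at the X copy (horizontal axis) and the Y copy (vertical axis) of each pair with both copies tested. Filled points have at least 1 copy with an adjusted p under 0.05, colours give the share of female counts at the Y copy, and the dotted line marks equal change. Most shared pairs lie near the line, but CpXY24 and PXYCpXY4, both filled, lie below it. The filled point of a separate pair far above the line is CpXY7.

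CpXY41 and CpXY40 are neighbouring pairs, 1020 bases apart on the X and 1021 on the Y. CpXY41_MSY (Y, 7776810 to 7779327) was at 70929.9, 86434 and 67644 CPM in the S5 pistillodes, against 12589, 18108 and 13996 CPM in the S1 pistillodes. All 3 S5 libraries lay above all S1 libraries, and the mean was 75002 ± 10035 against 14898 ± 2868 CPM, a 5.03-fold rise (log2 difference 2.33, SE 0.39, adjusted p = 9.81e-06, edgeR quasi-likelihood test; SD, n = 3 each). This 1 feature took 5.46 to 8.21% of the counts of the S5 libraries and 1.39 to 1.99% of those of the S1 libraries. Its X copy CpXY41_X (X, 5087436 to 5089953) was at 36854, 38769 and 30035 CPM at S5, against 6877, 8405 and 7584 CPM at S1. The groups were again apart, by 4.62-fold (log2 difference 2.21, SE 0.37, adjusted p = 1.11e-05, edgeR).

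CpXY40_MSY (Y, 7773864 to 7775788) was at 5542, 5638 and 5105 CPM in S5 and 536, 1631 and 487 CPM in S1 pistillodes. The S5 libraries were close together and the S1 libraries were not, replicate 2 being the highest of them (log2 difference 2.62, SE 0.66, adjusted p = 0.00339, edgeR). CpXY40_X (X, 5084491 to 5086415) rose as well, at 3565 ± 83.6 against 575 ± 341 CPM (log2 difference 2.63, SE 0.71, adjusted p = 0.00607, edgeR; SD, n = 3 each). Both pairs are shared, so the chromosome behind the rise is not known. When the 13 pistillode libraries were fitted alone, the adjusted p of CpXY40_X, CpXY40_MSY and CpXY41_MSY was 0.186, 0.17 and 0.0542, and CpXY41_X passed at 0.0395.

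The points between showed that these features did not climb evenly with stage. CpXY41_MSY was at 13683 and 12688 CPM in the 2 S2 libraries, 72632 and 12214 CPM in the 2 S3 libraries and 17357, 112125 and 35302 CPM in the 3 S4 libraries. Replicate 1 of S3 was at the S5 level while replicate 2 of S3 and replicate 1 of S4 were at the S1 level. CpXY40_MSY followed the same libraries, at 628 and 322 CPM at S2, 6829 and 431 CPM at S3 and 255, 10909.5 and 3403 CPM at S4. The libraries of S3 and of S4 therefore differed more among themselves than S5 differed from S1 at these features, and the labels give no reason.

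In the separate pair CpXY7 the Y copy CpXY7_MSY rose and the X copy did not pass (Y, 4375233 to 4397289). It was at 50228, 53383 and 38630.3 CPM in S5 pistillodes, against 12330.1, 16178 and 14133 CPM in S1 pistillodes. All S5 libraries exceeded all S1 libraries, at 47414 ± 7769 against 14214 ± 1925 CPM, a 3.34-fold difference (log2 difference 1.74, SE 0.31, adjusted p = 2.61e-05, edgeR; SD, n = 3 each). CpXY7_X (X, 2661607 to 2674052) was at 7999.8, 8316 and 7377 CPM at S5 and 7746, 8538 and 7265 CPM at S1, with the libraries of the groups overlapping (log2 difference 0.01, SE 0.15, adjusted p = 1, edgeR). The intermediate libraries of CpXY7_MSY held 14566 and 14042 CPM at S2, 51074 and 14622 CPM at S3 and 15352, 51549.7 and 23867 CPM at S4. Replicate 1 of S3 and replicate 2 of S4 were high, as for CpXY41_MSY, and replicate 2 of S3 and replicate 1 of S4 were low.

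**Figure D2:**
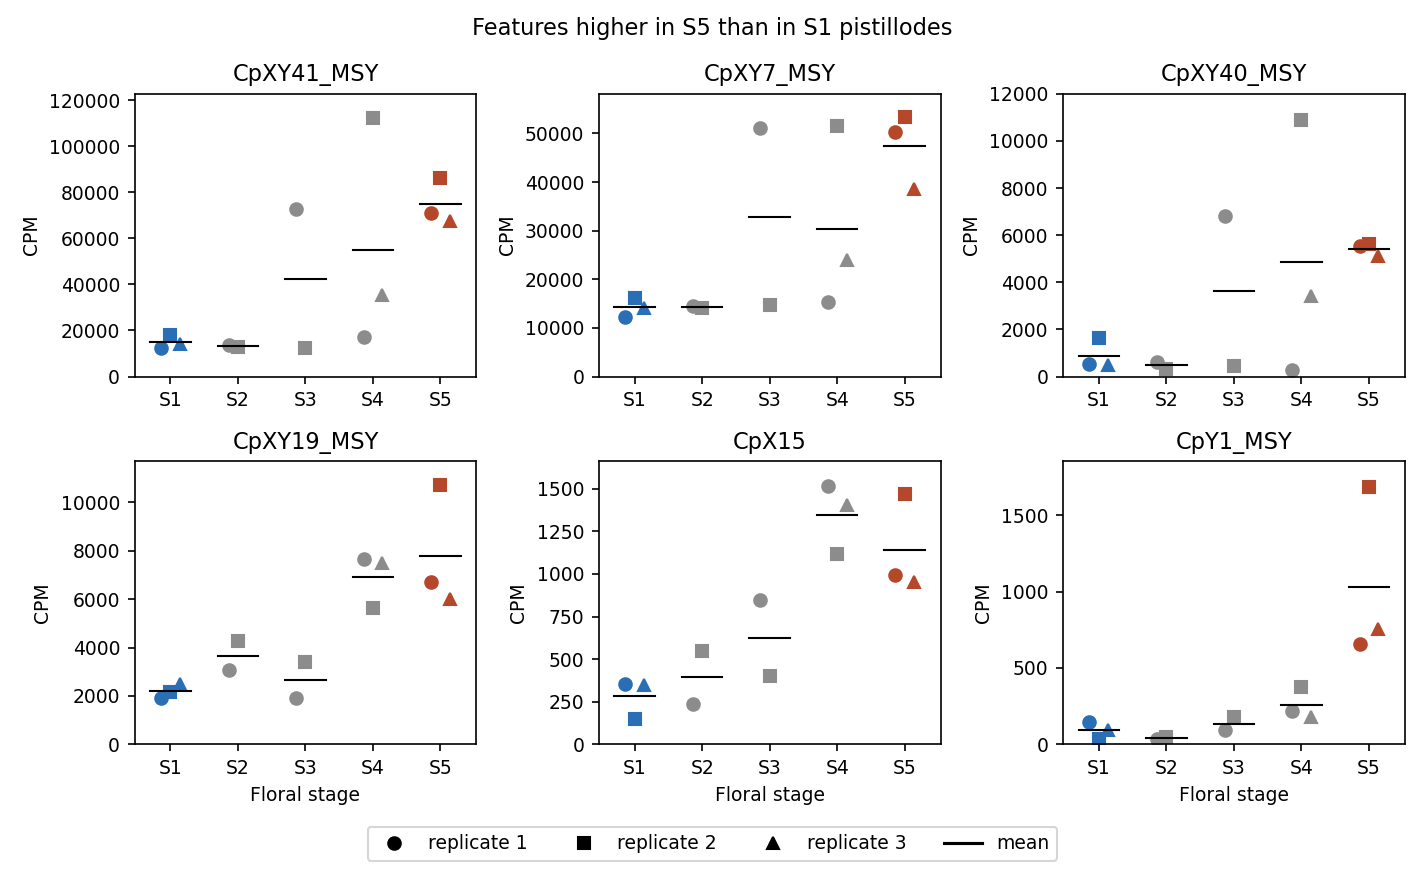
CPM of 6 features higher in S5 than in S1 pistillodes, by floral stage (horizontal axis), each symbol 1 library and each bar the stage mean. CpXY41_MSY, CpXY7_MSY and CpXY40_MSY are high in replicate 1 of S3 and in replicate 2 of S4, whereas CpXY19_MSY is high in all 3 S4 libraries.

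CpXY19 has 1 Y copy and 2 X copies, and all 3 features rose. CpXY19_MSY (Y, 4645636 to 4650940) was at 6717, 10698 and 5994 CPM at S5, against 1904, 2180.3 and 2482 CPM at S1. The groups did not overlap, and the S5 libraries spread widely (log2 difference 1.84, SE 0.36, adjusted p = 0.000103, edgeR). The X copies CpXY19a_X and CpXY19b_X were at 8097 ± 2775 and 5491 ± 1450.5 CPM at S5, against 2227 ± 359.6 and 2005 ± 678 CPM at S1 (SD, n = 3 each). Their log2 differences were 1.87 (SE 0.37, adjusted p = 0.000117, edgeR) and 1.46 (SE 0.40, adjusted p = 0.00662, edgeR), and the call of CpXY19b_X was lost without S1 replicate 3 or without S5 replicate 2. Here the points between varied up to S3 and were high in every S4 library. CpXY19_MSY was at 3056 and 4256 CPM at S2, 1900.0 and 3418 CPM at S3 and 7639, 5651 and 7487 CPM at S4. Both S2 libraries lay above all S1 libraries, and replicate 1 of S3 lay below them. All S4 libraries were above all S3 libraries, including the S4 library that was at the S1 level for CpXY41 and CpXY7.

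Features with no assigned partner changed in both directions. CpX15 (X, 2371023 to 2371797), placed on the X, was at 992, 1467 and 955 CPM in S5 and 351, 149.8 and 350.3 CPM in S1 pistillodes. Its S5 libraries were all higher (log2 difference 2.01, SE 0.56, adjusted p = 0.00742, edgeR), a call lost without S1 replicate 2. CpY1_MSY (Y, 35857 to 36232), placed on the Y with no assigned partner, was at 656, 1682 and 757 CPM in S5 and 148, 33.3 and 91.4 CPM in S1 pistillodes. The groups were apart (log2 difference 3.53, SE 0.73, adjusted p = 0.000296, edgeR), on 191 counts over the S5 libraries and 16 over the S1 libraries, a scaled ratio of 12.6 with a 95% exact binomial interval of 7.57 to 22.5. Such intervals cover counting error only. CpY1_MSY is one of the 6 stamen and pollen features, at 15024 ± 2757 CPM in S5 stamens, and the part of stamen or pollen RNA in its rise was not tested. It also had 16, 4 and 3 counts in the S5 pistils of XX females, against 0 in the 3 S1 pistils, so it is counted in libraries of plants without a Y as well. None of the other 5 features of that list passed between S5 and S1, and CpY17_MSY was at 4455 ± 257 CPM in S5 and 3847 ± 436 CPM in S1 pistillodes.

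Rises at lower counts or of smaller size completed the list. CpXY10_X (X, 3031986 to 3034259) had 11, 15 and 5 counts in S5 and 1, 0 and 1 counts in S1 libraries. It was low everywhere, its scaled ratio of 16.4 had a 95% interval of 4.17 to 141, and its call (log2 difference 3.80, SE 1.14, adjusted p = 0.0133, edgeR) was lost without S1 replicate 2. Its Y copy had no counts in either group. CpXY24_X (X, 4385024 to 4393881), of a shared pair, was at 3588, 3445 and 3524 CPM at S5, against 2033, 2214 and 2010.3 CPM at S1. The libraries within each group were close together (log2 difference 0.75, SE 0.20, adjusted p = 0.004, edgeR), while its Y copy did not pass, at 7479 ± 659 against 6828 ± 887 CPM (adjusted p = 0.654). With table totals CpXY24_X did not pass either and CpXY24_MSY turned to -0.13. Beyond the naming rule, and named after their values were seen, CpXY26_MSY was at 9981 ± 1043 against 6159.7 ± 152 CPM (log2 difference 0.70, adjusted p = 0.00742, edgeR) and CpXY48_MSY at 7195 ± 408 against 5374 ± 318 CPM (log2 difference 0.42, adjusted p = 0.0152, edgeR).

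Among lower features, PCpY1_MSY, on the Y with no assigned partner (Y, 477941 to 478677), lost almost all of its counts. It had 2, 0 and 3 counts in the S5 libraries, against 153, 116 and 193 counts in the S1 libraries. That is 5 counts in all against 462, a scaled ratio of 0.0114 with a 95% interval of 0.0037 to 0.0269 (log2 difference -6.28, SE 0.73, adjusted p = 6.48e-09, edgeR). In CPM the decline ran through the stages, at 2828, 1931 and 2939 at S1, 2835 and 2837 at S2, 1091 and 1694 at S3, 365, 49.1 and 272 at S4 and 30.5, 0 and 98.8 at S5. No S3 library reached the S1 or S2 libraries, and no S4 library reached S3.

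CpX1 (X, 1956491 to 1956845), on the X with no assigned partner, was at 870.2, 969 and 494 CPM in S5 and 4067, 5492 and 5254 CPM in S1 pistillodes. Every S5 library was far below every S1 library, a 6.35-fold fall (log2 difference -2.63, SE 0.34, adjusted p = 5.64e-08, edgeR). At S3 its 2 libraries parted, at 2314 and 5439 CPM, and at S4 they held 2443, 1114 and 2178 CPM. Both copies of CpXY17, a partly shared pair, fell together. CpXY17_X (X, 4115164 to 4119607) was at 2366, 2503 and 2141 CPM at S5, against 9169, 7989 and 7782 CPM at S1. CpXY17_MSY (Y, 4563067 to 4567501) was at 2259.5, 2126 and 2602 CPM at S5, against 8541, 8305 and 8331 CPM at S1. Neither copy had overlapping groups, and the falls were 3.56-fold (log2 difference -1.82, SE 0.19, adjusted p = 3.52e-10, edgeR) and 3.6-fold (log2 difference -1.86, SE 0.21, adjusted p = 6.09e-09, edgeR). CpXY17_X was lower at S3, with 4646 and 5141 CPM, and again at S4, with 3282, 2392 and 2541 CPM. The replicates within S3 and within S4 lay close together, and those of S2 parted. With the S1 mean as 0 and the S5 mean as 1 on a log scale, S2 replicate 1 was at 0.31 and S2 replicate 2 at -0.07.

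**Figure D3:**
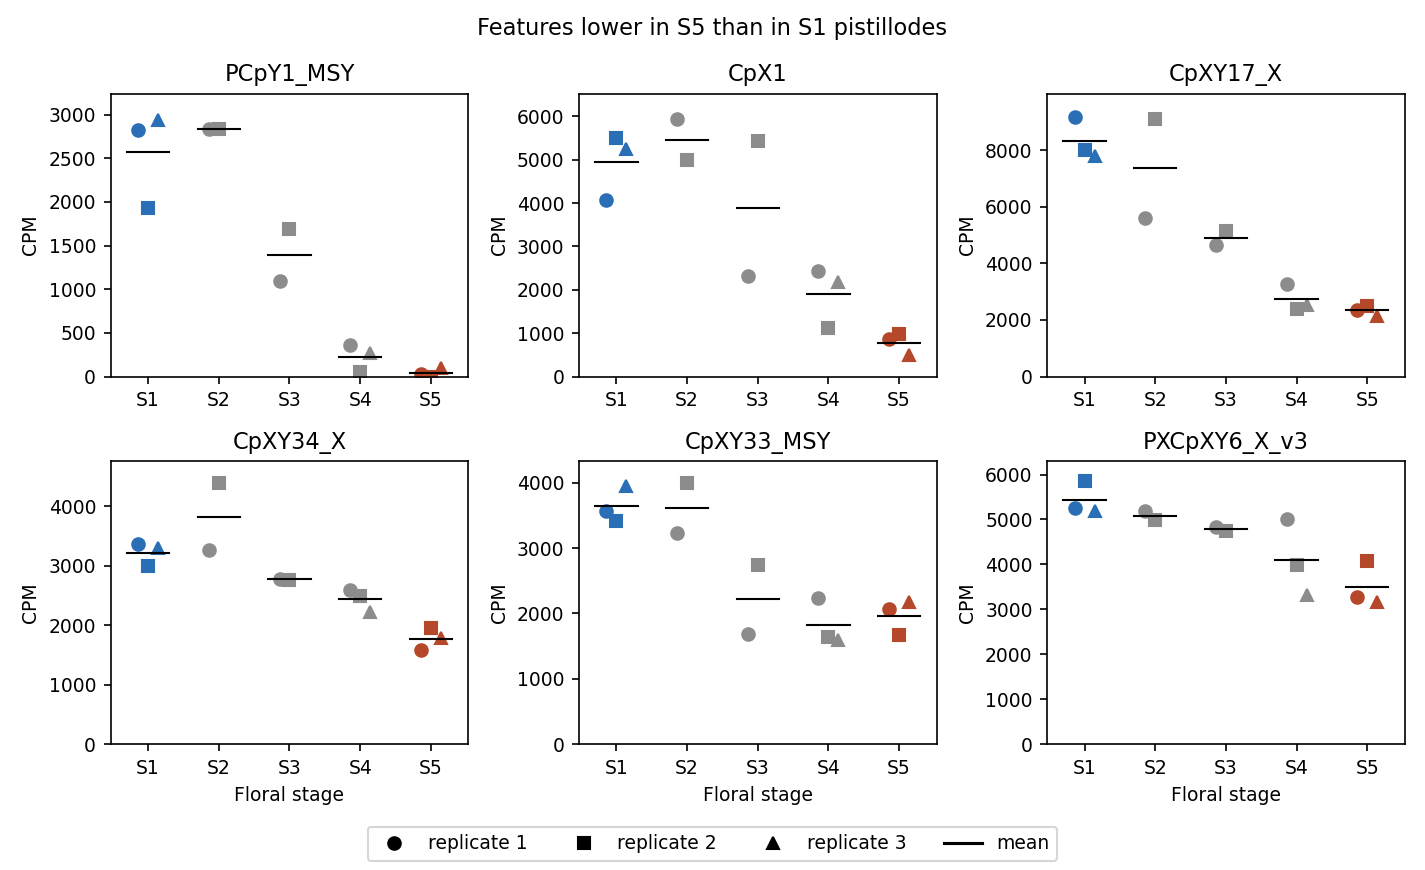
CPM of 6 features lower in S5 than in S1 pistillodes, by floral stage (horizontal axis), each symbol 1 library and each bar the stage mean. PCpY1_MSY, CpX1 and CpXY17_X are near their lowest level by S4 or S5, and the lower 3 panels show smaller falls.

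The other falls, except that of PXYCpXY4_MSY, were smaller than 2-fold. Of the shared pair CpXY34, the X copy was at 1588, 1951 and 1778 CPM at S5, against 3364, 2996 and 3289.7 CPM at S1. The Y copy was at 2015, 2072 and 1811 CPM at S5, against 3494, 3462 and 3183 CPM at S1. Both copies were apart between groups, with log2 differences of -0.86 (SE 0.14, adjusted p = 9.70e-06, edgeR) and -0.78 (SE 0.24, adjusted p = 0.016, edgeR). The call of CpXY34_MSY was lost without S5 replicate 2 or S5 replicate 3. CpXY33_MSY of a shared pair was at 1968 ± 265 against 3641 ± 274 CPM (log2 difference -0.89, SE 0.26, adjusted p = 0.00862, edgeR), lost without S5 replicate 2, and CpXY33_X_v2 passed narrowly (log2 difference -0.84, SE 0.30, adjusted p = 0.0492, edgeR) and was lost in 11 of 17 alternatives.

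PXCpXY6_X_v3 (X, 2867715 to 2894506) was at 3267, 4077 and 3162 CPM at S5, against 5250.0, 5859 and 5178 CPM at S1. Its groups did not overlap (log2 difference -0.63, SE 0.15, adjusted p = 0.00127, edgeR), whereas its Y copy was at 4509.8 ± 918 against 4552 ± 227 CPM (adjusted p = 1) and a sign that turned between alternatives. CpXY12_X, the X copy of a separate pair, was at 17046 ± 1792 against 22816 ± 1005 CPM (log2 difference -0.42, SE 0.12, adjusted p = 0.0115, edgeR), and its Y copy at 19233 ± 1666 against 24024 ± 2488 CPM (adjusted p = 0.419). The Y copy passed with the pistillode libraries alone (adjusted p = 0.0371, edgeR) and with the S5 and S1 libraries alone (adjusted p = 0.0319, edgeR), and the ratio of the copies did not pass (log2 change 0.11, SE 0.10, adjusted p = 0.384, limma). The call of CpXY12_X was lost without S5 replicate 3 and when shared and partly shared pairs were left out before scaling. CpXY32_X was at 1326 ± 281 against 1981 ± 371 CPM (log2 difference -0.56, SE 0.19, adjusted p = 0.0272, edgeR), lost in 8 of 17 alternatives, and its Y copy had a log2 difference of -0.08 (adjusted p = 0.899). PXYCpXY4_MSY had overlapping groups, at 107, 26.9 and 65.9 CPM at S5 and 277, 383 and 107 CPM at S1, and is named after its values were seen (log2 difference -1.92, adjusted p = 0.0236, edgeR).

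Steps between neighbouring stages were tested in the same model, and the features they name were chosen after their values were seen. No feature passed between S2 and S1, where 7 had an unadjusted p under 0.05 and the DESeq2 Wald test also called 0. None passed between S3 and S2, where 10 had an unadjusted p under 0.05 and DESeq2 called 5. Between S4 and S3, the labelled step past meiosis, 8 features passed (5.76%), 5 higher and 3 lower. The higher ones were CpXY19a_X, CpXY19_MSY, both copies of CpXY42 and PYCpXY5_X, and the lower ones were PCpY1_MSY and both copies of CpXY17. Among these, PCpY1_MSY had a log2 difference of -2.66 (SE 0.61, adjusted p = 0.00309, edgeR) and CpXY19_MSY 1.37 (SE 0.40, adjusted p = 0.0351, edgeR). Scaled by the median of ratios, 4 were higher and 5 lower at this step, with table totals 2 and 3, and by DESeq2 5 and 9. Fitted on the S4 and S3 libraries alone, none passed.

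CpXY42, next to CpXY41 on both chromosomes, peaked at S4 and did not pass between S5 and S1. CpXY42_MSY was at 2699, 3262 and 2772 CPM at S1, 3649.9 and 1902 at S2, 3311 and 3314 at S3, 3719, 13137 and 7623 at S4 and 3756, 3889 and 4117 at S5. Replicates 2 and 3 of S4 carried the peak, and replicate 1 of S4 was just below the S5 libraries. Its X copy CpXY42_X rose at S4 relative to S3 (log2 difference 1.27, SE 0.29, adjusted p = 0.00309, edgeR), and CpXY42_MSY fell at S5 relative to S4 (log2 difference -1.06, SE 0.24, adjusted p = 0.00894, edgeR). At the last step, CpX1 and both copies of CpXY42 were the features that passed (2.16%), all lower at S5. By the median of ratios 1 feature passed at that step, and with the pistillode libraries alone none did.

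A library's place between the groups was set at 0 for the S1 mean and 1 for the S5 mean of each called feature on a log scale with 10 CPM added, as a description. Over the 26 features the median place was 0.08 and -0.02 for the S2 libraries, 0.44 and 0.27 for the S3 libraries, and 0.50, 0.95 and 0.75 for the S4 libraries. Over the 14 higher features alone it was 0.93 in replicate 1 and 0.19 in replicate 2 of S3. Over the 12 lower features it was 0.35 and 0.28 in those libraries. Single features went both ways: replicate 1 of S3 had a place above that of replicate 2 in 9 of the 14 higher and 9 of the 12 lower features. With S3 replicate 1 and S4 replicate 1 left out of the fit, 29 features passed between S5 and S1, 24 of them among the 26.

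The pistil of female flowers grows to a functional organ over the same stages, so the change in pistillodes was set against that in pistils (female plants, XX, 3 libraries each at S5 and S1, same bud sizes). In pistils 19 of 139 features passed between S5 and S1 (13.7%), 6 higher (4.32%) and 13 lower (9.35%). Of the 26 features that changed in pistillodes, 4 passed in the same direction in pistils, namely CpX1, CpX15, CpXY17_MSY and CpY1_MSY, 1 passed in the opposite direction (CpXY10_X) and 21 did not pass. The difference of the changes, pistillode minus pistil, passed for 24 of all features (17.3%), 10 higher (7.19%) and 14 lower (10.1%), and for 15 of those 26. With table totals the split was 8 higher and 29 lower. Fitted on the S5 and S1 libraries of these organs alone, it was 15 higher and 9 lower. The 26 features were chosen by their change in pistillodes, which is part of this difference. The 15 that passed among them are therefore no separate evidence that the organs differ.

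CpXY19_MSY was at 7803 ± 2533 CPM in S5 and 2189 ± 289 CPM in S1 pistillodes, and at 743 ± 129 and 962 ± 329 CPM in pistils of those stages. Its change differed between the organs by 2.21 (SE 0.52, adjusted p = 0.00386), and that of CpXY19a_X by 2.21 (SE 0.53, adjusted p = 0.00416), both in edgeR and in each of 22 alternatives. CpXY41_MSY was at 11651 ± 926 CPM in S5 and 7929 ± 576 CPM in S1 pistils, a difference of changes of 1.78 (SE 0.53, adjusted p = 0.0168) in edgeR that was lost when the 2 organs were fitted alone (adjusted p = 0.1). CpXY7_MSY had only 96 ± 24.3 CPM in S5 and 130.3 ± 36.5 CPM in S1 pistils, as a Y feature in XX plants, so its difference of changes of 2.17 (SE 0.66, adjusted p = 0.0168) in edgeR compares a rise with background counts, and it was lost with the 2 organs fitted alone (adjusted p = 0.0707) and without Female_Pistil_S1 replicate 1 or Female_Pistil_S5 replicate 2. PCpY1_MSY had 5 and 3 counts in S5 and S1 pistils, and its difference of changes of -6.60 (SE 1.59, adjusted p = 0.00416) in edgeR likewise compares a fall with background counts and was lost without Female_Pistil_S5 replicate 2. CpXY10_X moved in opposite ways, at 6.73 ± 11.7 CPM in S5 and 124 ± 82.4 CPM in S1 pistils, on 2 and 22 counts, and the difference of its changes was 7.41 (SE 1.63, adjusted p = 0.00264) in edgeR.

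For other features the change in pistillodes was the lower one. CpX1 fell in both organs, to 1833 ± 303 CPM in S5 pistils, against 4005 ± 1271 CPM in S1 pistils, and the difference of its changes was -1.50 (SE 0.45, adjusted p = 0.0168) in edgeR, a call lost without Female_Pistil_S1 replicate 2, Female_Pistil_S5 replicate 2 or pistillode S5 replicate 3. CpXY25_X was at 1046 ± 158 and 738 ± 249 CPM in S5 and S1 pistillodes, and at 3639 ± 2963 and 754 ± 315 CPM in S5 and S1 pistils. The S5 pistils spread widely, and the differences of -1.76 (SE 0.52, adjusted p = 0.0168) for CpXY25_X and -1.57 (SE 0.56, adjusted p = 0.0447) for CpXY25_MSY in edgeR were lost without Female_Pistil_S5 replicate 2 or Female_Pistil_S1 replicate 1, and that of CpXY25_MSY also without Female_Pistil_S1 replicate 3, pistillode S1 replicate 2, pistillode S5 replicate 1 or pistillode S5 replicate 3. PYCpXY31_X had 0 counts in S5 and 8 in S1 pistillodes, against 44 in S5 and 7 in S1 pistils. Its fitted difference of -6.92 (SE 1.93, adjusted p = 0.0168) in edgeR depends on the prior count and was lost without pistillode S1 replicate 1 and in DESeq2.

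**Figure D4:**
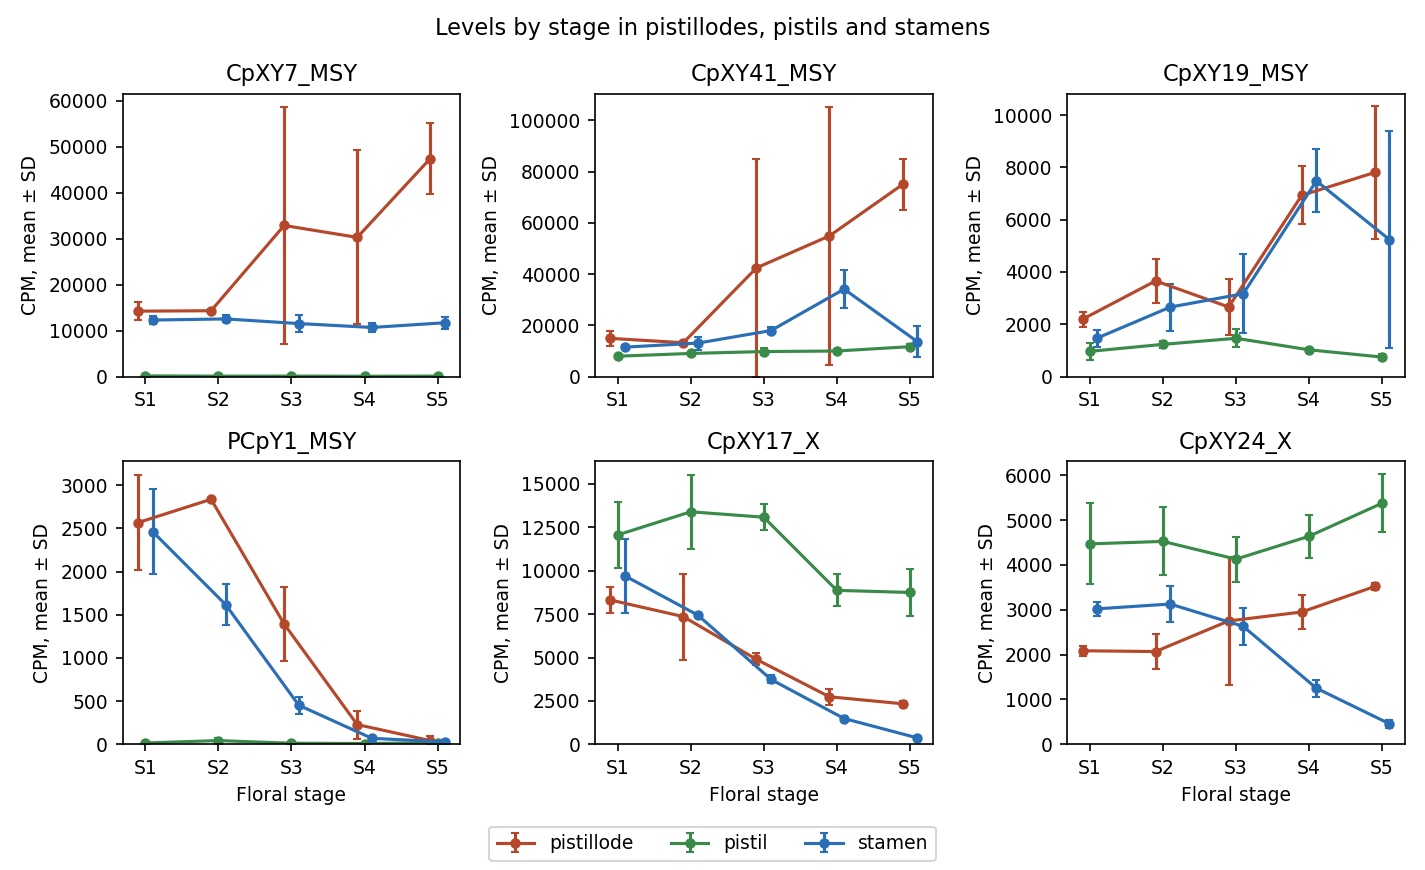
Mean CPM (± SD, n = 3, or 2 for S2 and S3 pistillodes, bars ending at the axis where they would pass 0) of 6 features by floral stage in pistillodes, pistils and stamens. CpXY7_MSY and CpXY41_MSY rise in pistillodes with a wide spread at S3 and S4, PCpY1_MSY falls in both male organs, and CpXY17_X falls further in stamens than in pistillodes.

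Stamens are the organ that matures in the male flower, and in the male stamen libraries (3 each at S5 and S1, same bud sizes) they changed at 91 of 139 features between S5 and S1 (65.5%), with 38 higher (27.3%) and 53 lower (38.1%). Of the 26 features changed in pistillodes, 15 passed in the same direction in stamens, 4 in the opposite direction (CpXY12_X, CpXY24_X, CpXY26_MSY and PXCpXY6_X_v3) and 7 did not pass. The difference of the changes, pistillode minus stamen, passed for 66 features (47.5%), 43 higher (30.9%) and 23 lower (16.5%), and for 15 of those 26. With table totals it was 57 higher and 18 lower. Here too the 26 features were chosen by a change that is part of the difference tested.

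PCpY1_MSY fell in both male organs, to 27.8 ± 26.6 CPM in S5 stamens, against 2462 ± 489 CPM in S1 stamens (log2 difference -6.32, adjusted p = 2.68e-10, edgeR). The difference between its changes was 0.04 (SE 1.19, adjusted p = 1) in edgeR. CpXY17_X fell in stamens to 374 ± 79.4 CPM at S5, against 9704 ± 2142 CPM at S1, further than in pistillodes by 2.86 (SE 0.27, adjusted p = 6.87e-12) in edgeR. CpXY7_MSY stayed at 11691 ± 1303 CPM in S5 and 12276 ± 885 CPM in S1 stamens, and its rise in pistillodes was the larger by 1.81 (SE 0.43, adjusted p = 0.000555) in edgeR. CpXY24_X rose in pistillodes and fell in stamens, to 458 ± 90.4 CPM at S5, against 3021 ± 152 CPM at S1, and its changes differed by 3.47 (SE 0.29, adjusted p = 1.87e-13) in edgeR.

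Several large differences from stamens came from stamen changes at features that did not pass between S5 and S1 in pistillodes. CpXY15_MSY and CpXY15_X were at 4418 ± 85.2 and 4322 ± 451 CPM in S5 pistillodes, against 6250.0 ± 1073 and 6036 ± 635 CPM in S1 pistillodes. In stamens they were at 269.9 ± 52.7 and 572 ± 446 CPM at S5, against 9033 ± 886 and 8545 ± 1242 CPM at S1, and the differences of changes were 4.55 (SE 0.41, adjusted p = 1.46e-12) and 3.40 (SE 0.47, adjusted p = 5.64e-08) in edgeR. CpXY36_X was at 37405 ± 3608 CPM in S5 and 35556 ± 2541 CPM in S1 pistillodes, and at 272675 ± 36699.7 and 25335 ± 1239 CPM in stamens of those stages, a difference of changes of -3.35 (SE 0.20, adjusted p = 1.57e-17) in edgeR. CpY17_MSY was at 115786 ± 78598 CPM in S5 and 1467 ± 251 CPM in S1 stamens, a difference of changes of -6.09 (SE 0.47, adjusted p = 2.18e-14) in edgeR. CpXY24_MSY, CpXY18_X, CpXY18_MSY, CpX26 and CpXY10_X complete the features named for this difference, at 3.26 (SE 0.23, adjusted p = 6.79e-16), -4.96 (SE 1.79, adjusted p = 0.02), -4.19 (SE 1.38, adjusted p = 0.0106), -8.01 (SE 3.28, adjusted p = 0.043) and 4.84 (SE 1.67, adjusted p = 0.0151). CpX26 had 1 count in S5 and 1 in S1 pistillodes and 0 in S1 stamens, so its fitted value is no measured fold. The calls of CpXY18_X, CpXY18_MSY, CpX26 and CpXY10_X were lost without 1 library: those of CpXY18_X, CpXY18_MSY and CpX26 without pistillode S1 replicate 1, that of CpXY10_X without pistillode S1 replicate 2 or stamen S1 replicate 1, and that of CpX26 also without pistillode S5 replicate 1 or 2, stamen S1 replicate 1 or 2 or stamen S5 replicate 2.

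Within a library, the ratio of Y to X counts of a pair does not depend on scaling, and it was tested with limma for 16 separate pairs, whose copies are counted apart. Between S5 and S1 pistillodes the ratio changed for 7 of 16 pairs (43.8%), higher for 3 and lower for 4. For CpXY7 the log2 ratio was 2.65, 2.68 and 2.39 in the S5 libraries, against 0.67, 0.92 and 0.96 in the S1 libraries. The S5 libraries were all above the S1 libraries (log2 change of the ratio 1.72, SE 0.35, adjusted p = 0.000475, limma). Its ratio was 0.56 and 0.83 at S2, 2.48 and 0.50 at S3 and 0.67, 2.49 and 1.97 at S4. The libraries with a high CpXY7_MSY level were those with a high ratio, but the same Y counts enter both.

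For CpXY9 the log2 ratio was -0.97, -0.90 and -0.92 in the S5 libraries, against -0.31, -0.18 and -0.46 in the S1 libraries. For CpXY6 it was -0.52, -0.74 and -0.49 in the S5 libraries, against 0.02, 0.06 and -0.06 in the S1 libraries. In both pairs every S5 library was below every S1 library, so the Y copy lost weight against the X copy (log2 change of the ratio -0.62, SE 0.13, adjusted p = 0.000475 for CpXY9 and log2 change of the ratio -0.59, SE 0.15, adjusted p = 0.00247 for CpXY6, limma). The changes of CpXY7, CpXY9 and CpXY6 passed in each of 13 alternatives. The other 4 were CpXY3 (log2 change of the ratio 0.45, SE 0.14, adjusted p = 0.0204), CpXY5 (log2 change of the ratio -0.47, SE 0.17, adjusted p = 0.0308), PYCpXY5 (log2 change of the ratio -0.99, SE 0.39, adjusted p = 0.0455) and PYCpXY22 (log2 change of the ratio 0.26, SE 0.10, adjusted p = 0.0455), all in limma, and each of these calls was lost in 2 to 7 of the 13 alternatives. None of the copies of CpXY9, CpXY6, CpXY3, CpXY5, PYCpXY5 or PYCpXY22 passed in CPM between S5 and S1.

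**Figure D5:**
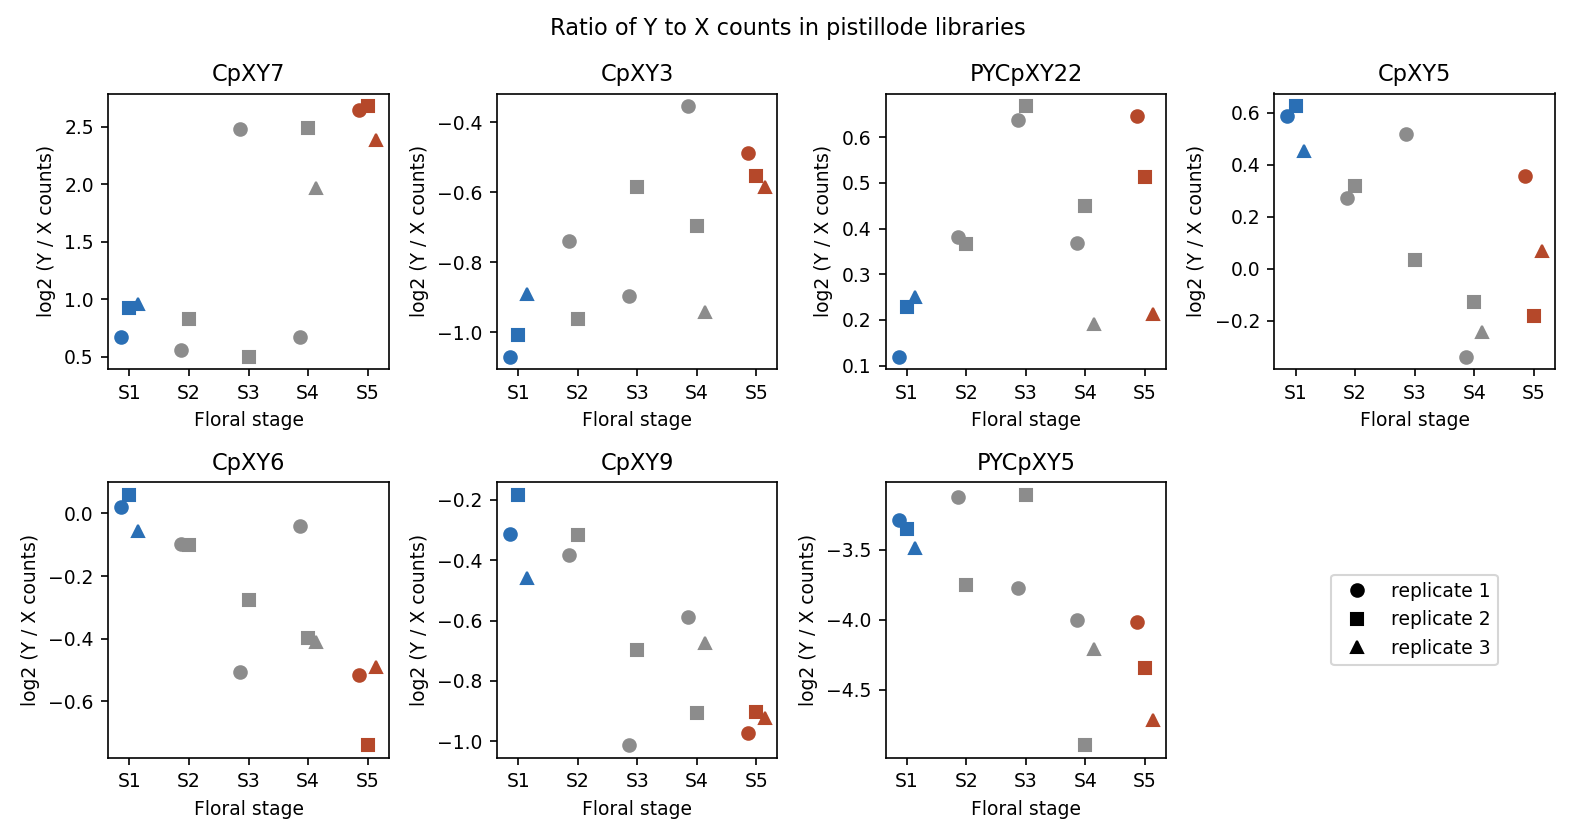
Log2 ratio of Y to X counts in each pistillode library, by floral stage (horizontal axis), for the 7 pairs whose ratio differed between S5 and S1. CpXY7 is above 2 in all S5 libraries, in replicate 1 of S3 and in replicate 2 of S4, and CpXY9 and CpXY6 are lower in all S5 libraries than in all S1 libraries.

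The share of all counts that fell on Y features was 58.1 ± 7.75% in S5 and 51.9 ± 0.416% in S1 pistillodes (SD, n = 3 each), a difference of 6.14 percentage points. Each S5 library was above each S1 library, and an exact two-sided permutation test gave p = 0.1, the smallest value that 3 against 3 allows. A single feature weighed on this share: PCpY4_MSY, on the Y with no assigned partner (Y, 1326011 to 1326911), took 28.2% of the counts of S5 replicate 3 and 11.1% of those of S4 replicate 3, the 2 libraries with the lowest totals, and 0.0563 to 2.83% of those of the other pistillode libraries. It had 12 to 648 counts in each of the 21 libraries of XX females, so its counts are not specific to the Y. It was at 1649, 592 and 349583 CPM in the S5 libraries, against 16619, 8372 and 8087 CPM in the S1 libraries. One S5 library was far above and 2 were below all S1 libraries, and the feature did not pass (log2 difference 3.41, SE 1.44, adjusted p = 0.0925, edgeR). Without it the Y share was 53.7 ± 0.294% at S5 and 51.4 ± 0.167% at S1, a difference of 2.37 points. Without S5 replicate 3 the difference was 1.66 points, and with PCpY4_MSY left out before scaling 28 features passed between S5 and S1, 24 of them among the 26. All these shares include shared and partly shared pairs, whose reads cannot be fully assigned to one chromosome. Without those pairs, and with PCpY4_MSY kept, the Y share was 61.1 ± 14.2% at S5 and 51.9 ± 0.662% at S1. That is a difference of 9.22 points, with S5 replicate 3 at 77.4%.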

How the data were processed

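The deposited values are fragment counts per feature, made with featureCounts 2.0.0 per the file headers, over exons summed by gene name, in paired mode, with multi-mapping reads counted at each place and no strand setting. Antisense or overlapping features cannot be told apart. The submitters' processing notes list HISAT2 2.0.5, featureCounts 1.5.2, Trimmomatic 0.36, SAMtools 1.3.1 and FastQC 0.11.5. TMM scaling (trimmed mean of M-values) was applied to all 55 libraries, which were filtered by group (139 of 193 features tested) and fitted in 1 quasi-likelihood model with edgeR 4.0.16 (R 4.3.3, robust, prior count 0.125), with Benjamini-Hochberg adjustment over all tested features and a threshold of 0.05. P-values were two-sided. Fold values are ratios of mean CPM.

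Named features were up to 12 per direction past the threshold, with a mean of at least 10 counts in the higher group and no overlap of the libraries, plus their partners, and up to 5 per direction for each difference of changes. Members, lists and pairs were chosen with earlier results of these data known. Log2 ratios of Y to X counts had a pseudocount of 0.5 and were tested with limma 3.58.1 over separate pairs with at least 20 counts per pistillode library and at least 100 female counts. No pistillode libraries of a stage agreed within sampling noise: the lowest chi-square per degree of freedom between them was 5.45. Alternatives were other scalings, DESeq2 1.42.0, other filters, fits on fewer libraries, a replicate block and each library left out. Dropping PCpY4_MSY or 2 libraries that stood apart was added after seeing the data. The code was tested on simulated data. Exact tests used SciPy 1.17.1, figures matplotlib 3.10.9, and tables pandas 2.3.3 under Python 3.11.15.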

Additional observations from a re-analysis of the deposited data

Results flagged for a closer look

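The test of the difference between the organs' changes from S1 to S5 passed for the features that follow (log2 units, edgeR, p-values adjusted over all 139 features). Pistillode minus pistil, the difference was 7.41 (SE 1.63, adjusted p = 0.00264) for CpXY10_X, 2.21 (SE 0.53, adjusted p = 0.00416) for CpXY19a_X, 2.21 (SE 0.52, adjusted p = 0.00386) for CpXY19_MSY, 2.17 (SE 0.66, adjusted p = 0.0168) for CpXY7_MSY and 1.78 (SE 0.53, adjusted p = 0.0168) for CpXY41_MSY. It was -6.92 (SE 1.93, adjusted p = 0.0168) for PYCpXY31_X, -6.60 (SE 1.59, adjusted p = 0.00416) for PCpY1_MSY, -1.76 (SE 0.52, adjusted p = 0.0168) for CpXY25_X, -1.57 (SE 0.56, adjusted p = 0.0447) for CpXY25_MSY and -1.50 (SE 0.45, adjusted p = 0.0168) for CpX1. CpXY7_MSY and PCpY1_MSY are Y features set against background counts in XX pistils, and both calls were lost without Female_Pistil_S5 replicate 2. CpXY10_X and PYCpXY31_X rest on few counts.

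Pistillode minus stamen, the difference was 4.84 (SE 1.67, adjusted p = 0.0151) for CpXY10_X, 4.55 (SE 0.41, adjusted p = 1.46e-12) for CpXY15_MSY, 3.47 (SE 0.29, adjusted p = 1.87e-13) for CpXY24_X, 3.40 (SE 0.47, adjusted p = 5.64e-08) for CpXY15_X and 3.26 (SE 0.23, adjusted p = 6.79e-16) for CpXY24_MSY. It was -8.01 (SE 3.28, adjusted p = 0.043) for CpX26, -6.09 (SE 0.47, adjusted p = 2.18e-14) for CpY17_MSY, -4.19 (SE 1.38, adjusted p = 0.0106) for CpXY18_MSY, and for its X partner CpXY18_X -4.96 (SE 1.79, adjusted p = 0.02), and -3.35 (SE 0.20, adjusted p = 1.57e-17) for CpXY36_X. CpX26 had 1 count in S5 and 1 in S1 pistillodes and 0 in S1 stamens, so its value is no measured difference. Both differences use the same S5 and S1 pistillode libraries.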

How the results depend on the processing

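Between S5 and S1, 48 features passed with table totals, 45 with the libraries of the groups compared only and 6 of 65 without shared and partly shared pairs, all 6 among the 26. Leaving out 1 library gave 21 to 30. Between S2 and S1, leaving out 1 library gave 0 to 1. Between S3 and S2, DESeq2 gave 5, the fit without PCpY4_MSY 4, and leaving out 1 library 0 to 5. Between S4 and S3, table totals gave 5, DESeq2 14, pistillodes alone 5, the compared groups 0, no shared pairs 1, and leaving out 1 library 4 to 13. Between S5 and S4, the median of ratios gave 1, table totals 7, DESeq2 6, pistillodes alone 0, the compared groups 0, no shared pairs 0, and leaving out 1 library 0 to 7. Pistillode minus pistil gave 37 with table totals, 9 without shared pairs and 16 to 31 with 1 library left out. Pistillode minus stamen gave 17 without shared pairs and 61 to 71 with 1 library left out. The Y to X ratio gave 3 to 9 pairs with 1 library left out, and the difference in Y share 1.66 to 8.41 points. The causes were not tested, except that fewer features were tested without shared pairs.

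Signs turned only for 3 copies that did not pass: CpXY7_X was -0.25 with table totals and -0.051 to 0.0982 with 1 library left out, CpXY24_MSY -0.13 with table totals, and PXCpXY6_MSY 0.0338 with the median of ratios, 0.0403 by DESeq2, 0.0618 with no count filter, 0.0597 with pistillodes alone, 0.0119 with the compared groups, 0.0537 without S3 replicate 1 and S4 replicate 1, 0.0297 without PCpY4_MSY, and -0.15 to 0.103 with 1 library left out. Over all named values, 936 alternatives kept direction and call, 88 lost the call, 2 gained it and 13 turned the sign.

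Libraries with the same replicate number did not deviate together in S5 and S1 (correlations of -0.37, 0.04 and -0.34). Libraries with unlike numbers had correlations of -0.51 to 0.52. With so few libraries and so wide a range, the check cannot tell whether the number pairs libraries. A replicate block gave 26 features between S5 and S1, 25 of them among the 26, and 10 between S4 and S3, 22 for pistillode minus pistil and 65 for pistillode minus stamen. Low totals in S4 replicate 3 and S5 replicate 3 limit precision there, where 1 count is worth 45.4 and 32.9 CPM.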
